A study of Mus musculus with 9 samples.

Results

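The Nduf genes encode the nuclear subunits of respiratory complex I and the factors that assemble it. They were measured by 68 probe sets for 39 genes, out of 36701 probe sets and 15964 named genes in all. A probe set is a group of short probes for one transcript on an Affymetrix array, and those annotated to exactly 1 gene symbol beginning with Nduf were taken, whatever their signal. The RNA came from C2C12 cells, a mouse skeletal myoblast line that fuses into myotubes when serum is lowered, after 5 days in DMEM with 2% horse serum at 37 °C. Total RNA was the starting material for 9 arrays, 3 replicates of each of the designs U74Av2, U74Bv2 and U74Cv2. These designs held 42, 8 and 18 of the Nduf probe sets. All arrays shared that single condition, with no undifferentiated sample, so the values show what gave signal in differentiated cells and not what changed. The labels name one sample and do not say that the replicates were separate cultures, so each p-value below measures only the spread between these arrays, which may be technical. C2C12 is a single clonal line, and the arrays do not separate fused from unfused cells. In such a bulk sample fewer cells of a kind and less RNA per cell cannot be told apart.

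Complex I takes electrons from NADH, passes them along a chain of iron-sulphur clusters to ubiquinone, and pumps protons across the inner mitochondrial membrane. Its catalytic core consists of the NADH module, which oxidises NADH, the quinone module, which reduces ubiquinone, and proton-pumping subunits encoded in mitochondrial DNA. Nuclear accessory subunits surround the core, and dedicated assembly factors build the modules without remaining in the finished enzyme. Muscle fibres depend on the complex for oxidative production of ATP.

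The upstream sequences of 5 genes are shown, which were picked by hand and not by rank. Other Nduf genes, such as Ndufa7, had probe sets further above background, and no difference in letters between the 5 was tested. Ndufs3, Ndufs7 and Ndufs8 encode the quinone module core and each had a probe set far above background, whereas Ndufaf4 and Ndufaf5 encode assembly factors whose detected or only probe sets lay near background. Each line runs 5′ to 3′ from 250 bases before to 30 bases after the gene start annotated by RefSeq on GRCm38.p6, a stretch of 280 bases. Capitals mark letters found on either strand for nuclear respiratory factor 1, the ETS family (CCGGAAG), YY1 (AAGATGGC), the estrogen-related receptors (AAGGTCA) or a TATA box (TATAAA).
Ndufs3 (chr2:90904692-90904971, minus strand): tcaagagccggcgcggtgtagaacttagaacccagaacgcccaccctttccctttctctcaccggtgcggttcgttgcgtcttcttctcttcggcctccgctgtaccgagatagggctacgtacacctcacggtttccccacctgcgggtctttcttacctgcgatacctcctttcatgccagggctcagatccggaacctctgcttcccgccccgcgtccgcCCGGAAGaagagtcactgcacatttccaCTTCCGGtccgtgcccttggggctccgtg
Ndufs7 (chr10:80249199-80249478, plus strand): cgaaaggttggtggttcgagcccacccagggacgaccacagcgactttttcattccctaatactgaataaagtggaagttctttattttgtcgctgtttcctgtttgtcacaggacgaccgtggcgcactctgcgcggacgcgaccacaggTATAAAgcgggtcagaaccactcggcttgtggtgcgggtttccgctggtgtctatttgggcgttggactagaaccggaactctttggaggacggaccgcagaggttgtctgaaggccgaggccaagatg
Ndufs8 (chr19:3912745-3913024, minus strand): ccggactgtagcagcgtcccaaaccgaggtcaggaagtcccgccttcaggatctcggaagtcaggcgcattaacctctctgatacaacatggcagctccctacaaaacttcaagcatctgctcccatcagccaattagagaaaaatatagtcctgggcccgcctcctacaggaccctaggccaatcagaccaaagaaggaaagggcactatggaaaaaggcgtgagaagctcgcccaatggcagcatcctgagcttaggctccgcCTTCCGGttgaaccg
Ndufaf4 (chr4:24897833-24898112, plus strand): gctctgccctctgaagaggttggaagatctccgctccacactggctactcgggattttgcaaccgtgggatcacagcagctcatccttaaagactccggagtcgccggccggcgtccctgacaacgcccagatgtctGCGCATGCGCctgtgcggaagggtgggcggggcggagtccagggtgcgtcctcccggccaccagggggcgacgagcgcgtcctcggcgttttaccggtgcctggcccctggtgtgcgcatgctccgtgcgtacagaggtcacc
Ndufaf5 (chr2:140170396-140170675, plus strand): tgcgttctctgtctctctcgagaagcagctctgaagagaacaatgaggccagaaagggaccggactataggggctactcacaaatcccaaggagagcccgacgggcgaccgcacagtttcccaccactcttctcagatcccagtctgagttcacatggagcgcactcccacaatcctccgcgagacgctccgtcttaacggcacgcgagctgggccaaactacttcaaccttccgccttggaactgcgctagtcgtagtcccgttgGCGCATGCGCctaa
In these stretches the ETS letters lay 27 bases before the start of Ndufs3 and again 1 base after its first base, and 15 bases after the first base of Ndufs8. The nuclear respiratory factor 1 letters lay 113 bases before the start of Ndufaf4 and 16 bases after the first base of Ndufaf5, and the TATA letters 99 bases before the start of Ndufs7. No 2 of the 5 motifs overlapped in these stretches.

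Such a stretch was in the RefSeq table for 35 of the 39 Nduf genes. The nuclear respiratory factor 1 letters were in 4 of the 35 (11.4%), namely Ndufa5, Ndufa8, Ndufaf4 and Ndufaf5, against 4.98% of 27025 genes with such a stretch. The ETS letters were in 6 of them (17.1%, against 9.48%), namely Ndufaf1, Ndufaf8, Ndufb6, Ndufb7, Ndufs3 and Ndufs8. The YY1 letters were in 3 (8.57%, against 2.66%), the TATA letters in 4 (11.4%, against 15.1%), and the estrogen-related receptor letters in 1, Ndufb2 (2.86%, against 5.1%). The median GC content was 58.9% over the Nduf genes and 52.5% over all genes. Its part in these shares was not tested, nor were the shares themselves, and a match of letters is not a binding site.

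Signal was read against a background limit, the 95th percentile of an array's control probe sets for sequences that the sample does not hold. For U74Av2 it stood at 206, 280 and 256.5 signal units on replicates 1, 2 and 3. It stood at 498, 430 and 963 for U74Bv2 and at 1034, 725 and 786 for U74Cv2. Detection meant a signal over the limit on each of the 3 replicate arrays. Every probe set was also tested with limma, a moderated test of log2 signal over limit against 0, with Benjamini-Hochberg adjustment over all probe sets of the design and a threshold of 0.05. Probes differ in how well they bind, so a multiple of the limit describes a probe set and does not rank genes by RNA level. All 6 listed markers of differentiating muscle (Myog, Acta1, Myh3, Ckm, Tnnt2 and Mymk) were detected, by 9 of 10 probe sets. The other was a Tnnt2 probe set on U74Cv2, at 0.18 ± 0.21 times the limit. Of 8 markers of other cell types, Cd68, Pecam1, Epcam and Cdh1 were detected, by 5 of the 14 probe sets of all 8. Ptprc, Cdh5, Alb and Adipoq were not. Cd68, Pecam1 and Cdh1 lay at 1.44 ± 0.242, 1.39 ± 0.421 and 6.11 ± 1.31 times the limit. Epcam was detected on U74Cv2 at 10.2 ± 2.81 and 6.36 ± 0.917 times. Its probe sets disagreed, with 0.370 ± 0.154 times on U74Cv2 and 0.162 ± 0.103 times on U74Av2, under the limit on every array. A further Cd68 probe set lay at 0.106 ± 0.0303 times. The part of Cd68, Pecam1, Epcam and Cdh1 in the Nduf values was not tested.

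Nearly all Nduf genes were detected, and those that were not were assembly factors. Of the 39 Nduf genes 36 were detected by at least 1 probe set, where 62.0% of all named genes were. All 32 subunit genes were among them, and 4 of 7 assembly factors. The exceptions were Ndufaf2, Ndufaf5 and Ndufaf6, each with a single probe set. Those of Ndufaf2 and Ndufaf5 are on U74Bv2 and that of Ndufaf6 is on U74Cv2. On these designs 43.8% and 31.6% of all probe sets were detected, against 58.2% on U74Av2, and the part of the design was not tested. Ndufaf5 and Ndufaf6 lay over the limit on 2 of 3 arrays, with means of 1.08 and 1.28 times the limit. By the moderated test 34 genes had a probe set above the limit, where 57.8% of all genes did, and Ndufc2 and Ndufs4 were the subunits without one. Whether subunits and assembly factors differed was not tested, and 8 of the calls depended on the rule or on 1 replicate. With each array's median signal as the limit Ndufa1 and Ndufc2 were lost and Ndufaf6 was gained. When at least 50% of a gene's probe sets had to be detected, Ndufa6, Ndufab1, Ndufb6 and Ndufb8 were lost. Ndufaf6 was detected without replicate 1 and Ndufaf5 without replicate 3.

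By probe set, 45 of the 68 were detected. The count was 32 of 42 on U74Av2, where 58.2% of all probe sets were detected, 4 of 8 on U74Bv2 (43.8% of all), and 9 of 18 on U74Cv2 (31.6% of all). The moderated test placed 30 above the limit on U74Av2 (55.8% of all), 3 on U74Bv2 (38.0%) and 8 on U74Cv2 (25.7%). It placed 7 below the limit on U74Av2 (28.7% of all), 3 on U74Bv2 (29.2%) and 5 on U74Cv2 (41.2%), so 12 of the 68 lay on neither side. Of the 23 that were not detected, 15 lay under the limit on all arrays, 3 lay above it on 1 array and 5 on 2 arrays.

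**Figure D1:**
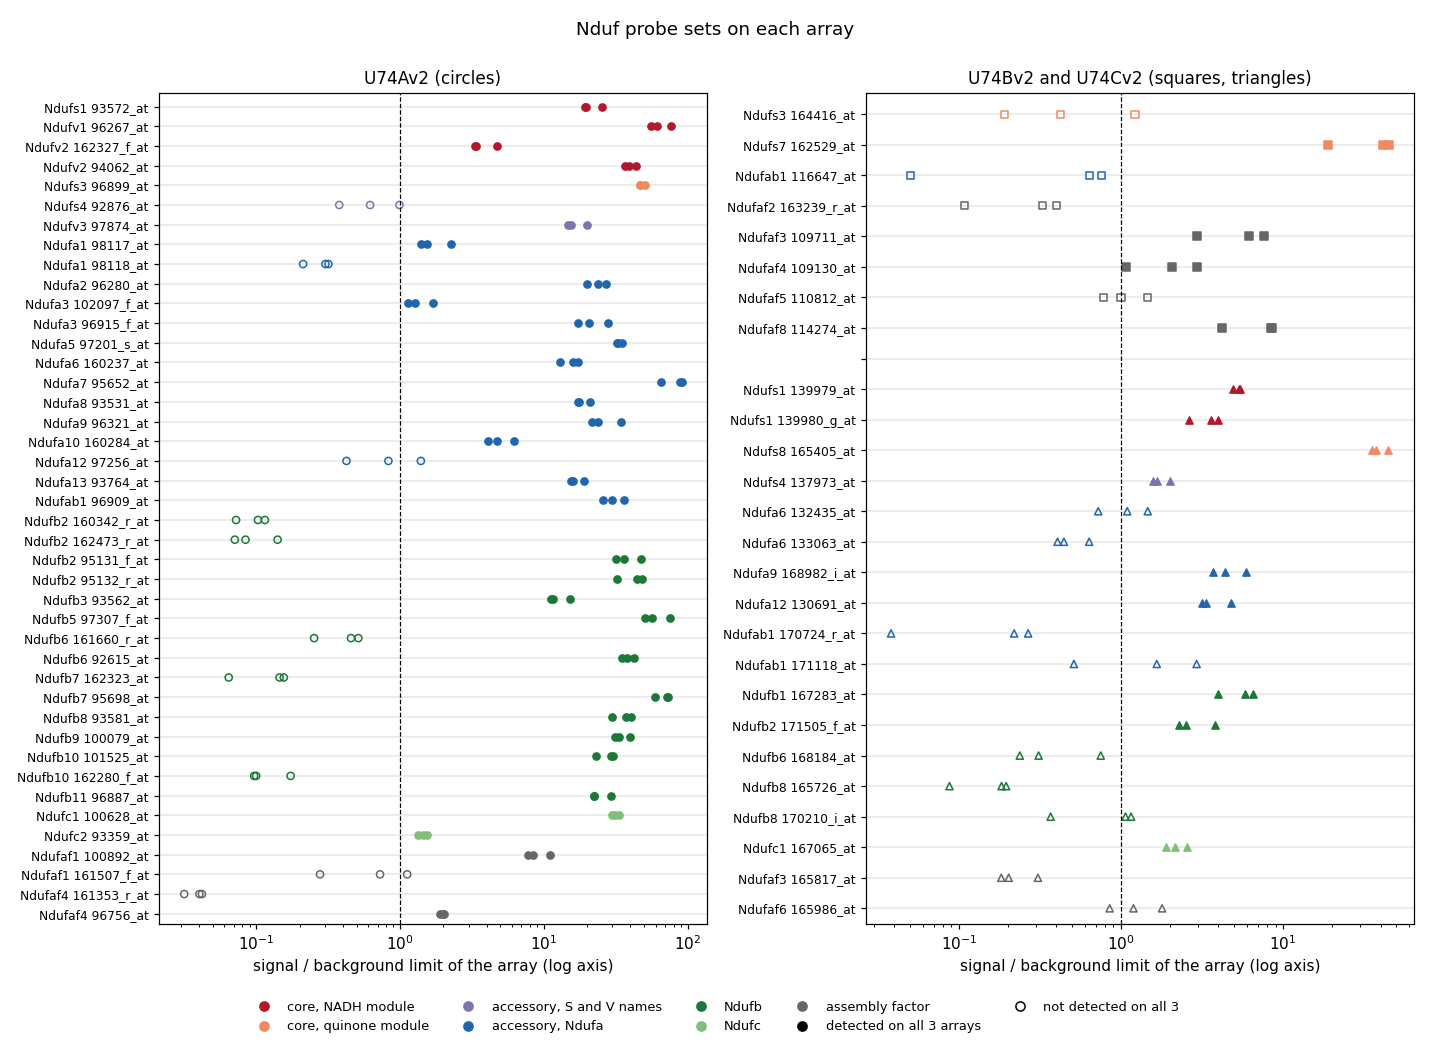
Signal of every Nduf probe set divided by the background limit of its array, on a log axis, with 3 points per probe set, 1 for each replicate array. Colours give the role, filled symbols are probe sets above the limit (dashed line) on all 3 arrays, and the points show 45 filled and 23 open rows, with the core subunits at the top and assembly factors at the bottom of each design.

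The 3 core subunits of the NADH module were detected by each of their 6 probe sets, and all 6 passed the moderated test. Ndufv1, which binds NADH and the flavin cofactor, had signals of 15836, 17237 and 14351 on replicates 1, 2 and 3 of U74Av2, 64.8 ± 10.9 times the limit (SD, n = 3; adjusted p = 7.44e-07, limma). Its SD of log2 signal over the arrays was 0.132, and the median over all detected probe sets of the design was 0.154. Ndufv2, an iron-sulphur subunit, read 9083, 10353 and 9991 with 94062_at, 40.0 ± 3.72 times the limit, and 967, 928 and 871 with 162327_f_at, 3.80 ± 0.777 times. Both were detected, although their multiples differed. Ndufs1, the iron-sulphur subunit that carries electrons through the module, read 5263, 5496 and 4937 on U74Av2, 21.5 ± 3.56 times the limit. On U74Cv2 its probe sets read 5068, 3927 and 4220 (139979_at) and 2726, 2872 and 2813 (139980_g_at), 5.23 ± 0.284 and 3.39 ± 0.682 times the limit of that design. The letters f and s in a probe set name mark probes shared with related transcripts, while i and r mark sets for which a rule of probe choice was relaxed.

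The quinone module was represented by Ndufs3, Ndufs7 and Ndufs8, whose upstream sequences are printed above. Ndufs7, the subunit that hands electrons to ubiquinone, had signals of 20622, 19268 and 18257 on U74Bv2. These were 41.4, 44.8 and 19.0 times the limit, and the lowest multiple stood on replicate 3, where the limit was highest. Ndufs8, an iron-sulphur subunit, read 36848, 32146 and 29599 on U74Cv2, 39.2 ± 4.56 times the limit (SD, n = 3; adjusted p = 0.000321, limma). Ndufs3, a core subunit that carries no iron-sulphur cluster, read 10355, 13106 and 12064 with its U74Av2 probe set, 48.0 ± 1.99 times the limit. Its U74Bv2 probe set read 609, 182 and 185, above the limit on replicate 1 alone, and lay below it by the moderated test (log2 -1.11 ± 0.48 SE, adjusted p = 0.0327, limma). On U74Bv2 and U74Cv2 replicate 1 had been washed on another fluidics station than replicates 2 and 3, and the part of the station in values that stand apart on replicate 1 was not tested.

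Among accessory subunits with S and V names, Ndufv3, a subunit of the NADH module, was detected at 4144, 4323 and 3763 signal units, 16.7 ± 2.96 times the limit of U74Av2. Ndufs4, whose loss causes a Leigh-like disease in mice, was less clear. Its U74Av2 probe set read 204, 106 and 159, under the limit on every array (log2 -0.70 ± 0.30 SE, adjusted p = 0.0613, limma). Its U74Cv2 probe set read 1716, 1140 and 1589, above the limit on every array at 1.75 ± 0.238 times, and missed the threshold narrowly (adjusted p = 0.0503, limma).

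All 12 Ndufa genes, counted with Ndufab1, were detected, by 14 of their 21 probe sets. Ndufa7 read 18348, 18293 and 23388 on U74Av2, 81.9 ± 14.4 times the limit, with replicate 3 high. Ndufa13, also known as GRIM-19, lay at 16.9 ± 1.93 times, Ndufa8 at 18.7 ± 2.09 times, Ndufa2 at 23.5 ± 3.50 times and Ndufa5 at 33.5 ± 1.43 times (SD, n = 3). Ndufa3 was detected by 96915_f_at (5718, 4874 and 5298, 21.9 ± 5.32 times) and, close to the limit, by 102097_f_at, which read 351, 320 and 328, 1.38 ± 0.293 times, and did not pass the moderated test (adjusted p = 0.12, limma). Ndufa10, on the matrix side of the membrane arm, lay lower, at 4.98 ± 1.07 times. Ndufa9, which sits where the arms of the complex meet, was detected on U74Av2 (26.6 ± 6.66 times) and on U74Cv2 (4.65 ± 1.12 times).

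Ndufa1, a small membrane subunit that the complex needs for assembly, stood near the limit. Its probe set 98117_at read 287, 631 and 398 on replicates 1, 2 and 3, which is 1.73 ± 0.456 times the limit (adjusted p = 0.0204, limma). The replicate arrays differed widely here, and its SD of log2 signal, 0.571, was the largest of the 32 detected Nduf probe sets on U74Av2. The other Ndufa1 probe set, 98118_at, read 62, 59 and 81 and lay below the limit by the moderated test (log2 -1.87 ± 0.24 SE, adjusted p = 0.000165, limma). Ndufa12, an accessory subunit, was detected on 1 of its designs. Its U74Av2 probe set read 288, 119 and 213, above the limit on replicate 1 alone, while that of U74Cv2 read 3265, 2435 and 3766, 3.77 ± 0.890 times the limit and above it on every array.

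All 10 Ndufb genes were detected. Their products lie in the distal part of the membrane arm. On U74Av2, Ndufb7 read 15126, 16732 and 18472, 68.4 ± 7.59 times the limit, and Ndufb5 lay at 61.0 ± 12.5 times. Ndufb8, Ndufb9, Ndufb10, Ndufb11 and Ndufb6 lay at 35.9 ± 5.51, 34.8 ± 4.45, 27.7 ± 3.91, 24.7 ± 3.87 and 38.3 ± 3.79 times, and Ndufb3 at 12.6 ± 2.14 times (SD, n = 3). Ndufb1, measured on U74Cv2, read 4116, 4763 and 4613, 5.47 ± 1.34 times the limit. Each of these probe sets lay above the limit by the moderated test. Ndufb9 spread more than most, from 6859 on replicate 1 to 8755 and 10199 on replicates 2 and 3.

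Ndufc1 and Ndufc2 are small subunits of the membrane arm. Ndufc1 was detected on U74Av2 with signals of 6877, 8804 and 7617, 31.5 ± 1.86 times the limit, and on U74Cv2 at 2.21 ± 0.339 times. Ndufc2 read 298, 375 and 393, above the limit on each array at 1.44 ± 0.0972 times. It did not pass the moderated test (log2 0.52 ± 0.22 SE, adjusted p = 0.0576, limma).

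The detected assembly factors were Ndufaf1, Ndufaf3, Ndufaf4 and Ndufaf8, between 1.98 and 9.06 times the limit of their designs. Ndufaf1, which helps to build the membrane arm, read 2259, 2183 and 2161 on U74Av2, 9.06 ± 1.69 times the limit. These 3 arrays gave the smallest SD of log2 signal of any detected Nduf probe set, 0.0336. Ndufaf3 and Ndufaf4 act together on the quinone module. Ndufaf3 read 3072, 3262 and 2850 on U74Bv2 (5.57 ± 2.37 times), while its U74Cv2 probe set, at 189, 147 and 242, lay below the limit by the test (adjusted p = 0.002, limma). Ndufaf4 read 420, 535 and 514 on U74Av2 (1.98 ± 0.0672 times; adjusted p = 0.0036, limma) and 1023, 1270 and 1036 on U74Bv2 (2.03 ± 0.939 times; adjusted p = 0.0865, limma).

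Ndufaf8 and Ndufaf5 are partners, since Ndufaf5 modifies Ndufs7 during assembly with the help of Ndufaf8. Ndufaf8 read 4264, 3609 and 4065 on U74Bv2, 7.06 ± 2.46 times the limit and above it on every array. Ndufaf5 read 499, 625 and 753, which is 1.00, 1.45 and 0.782 times the limits of the same arrays. Its signal was highest on replicate 3, but that array also had the highest limit, so it counted as not detected there (log2 0.06 ± 0.48 SE, adjusted p = 0.916, limma). Ndufaf6, which acts early in assembly, read 882, 1302 and 941 on U74Cv2, under the limit on replicate 1 alone (adjusted p = 0.468, limma). Ndufaf2, related in sequence to Ndufa12, read 199, 141 and 104 on U74Bv2, under the limit on every array (log2 -2.05 ± 0.48 SE, adjusted p = 6.01e-05, limma). On U74Bv2 the moderated fit gave all probe sets a single spread, and much of that spread came from the limits, which moved all probe sets of an array together.

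Probe sets of a gene could disagree. Of 19 Nduf genes with more than 1 probe set, 5 had every one detected (Ndufa3, Ndufa9, Ndufc1, Ndufs1 and Ndufv2) and 14 had a mixture, which left 20 undetected probe sets for genes that another probe set detected. The mixed share was 73.7% of these 19 genes. Of 7645 genes with several probe sets, 21.7% had every one detected, 55.4% a mixture and 22.9% none, and the difference was not tested. Ndufb2 had 5 probe sets, of which 95131_f_at and 95132_r_at lay at 38.4 ± 7.96 and 41.8 ± 8.33 times the limit of U74Av2. The other U74Av2 sets, 160342_r_at and 162473_r_at, read between 15 and 36 signal units on every array, 0.0966 ± 0.0219 and 0.0986 ± 0.0371 times the limit. For Ndufb7 the second probe set read 32, 18 and 37, for Ndufb10 36, 27 and 26, and for Ndufb6 94, 71 and 132, all under the limit. Ndufab1, the mitochondrial acyl carrier protein, was detected on U74Av2 at 30.5 ± 5.22 times the limit by 1 of its 4 probe sets. On U74Cv2 its probe set 171118_at read 531, 2125 and 1309, under the limit on replicate 1 alone, while 170724_r_at there (40, 159 and 211) and 116647_at on U74Bv2 (319, 328 and 48) lay under it on every array. Ndufa6 lay at 15.3 ± 2.21 times on U74Av2, with 1.10 ± 0.370 and 0.497 ± 0.124 times on U74Cv2. Ndufb8 read 91, 142 and 145 (165726_at) and 1105, 838 and 290 (170210_i_at) on U74Cv2, the latter over the limit on 2 arrays, and Ndufb6 read 246, 545 and 245 there. Ndufaf1 read 57, 204 and 288 with 161507_f_at. Ndufaf4 read 9, 11 and 8 with 161353_r_at.

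**Figure D2:**
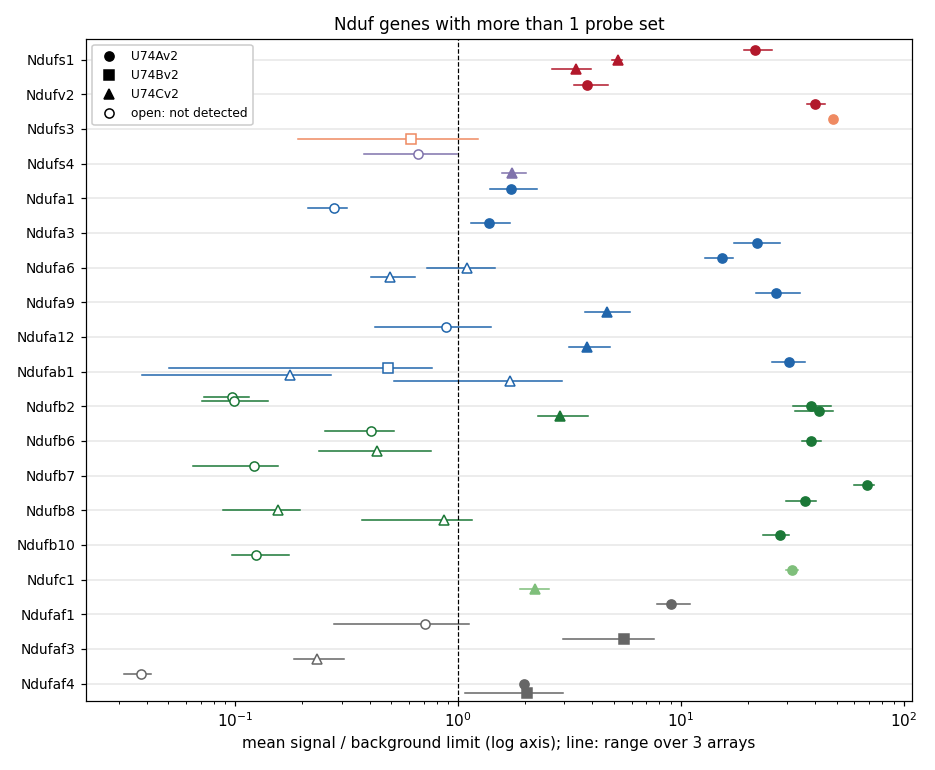
Mean signal divided by the background limit (log axis) of each probe set of the 19 Nduf genes with more than 1, with lines for the range over 3 arrays, symbol shape for the design and colour for the role. Open symbols were not detected on all 3 arrays; 14 genes show both open and filled symbols, and for Ndufb2 they lie from 0.0966 to 41.8 times the limit.

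The source of the probe sets moved with these calls on U74Av2, as was seen after their values were known. Of the Nduf probe sets designed from sequence tags with names beginning AV, 5 of 16 were detected, and of those from other named sequences 35 of 44. Over all probe sets the shares were 32.5% and 53.8%, in the same order. These counts pool designs that differ in detection. On U74Av2 1 of 6 and 28 of 31 Nduf probe sets were detected (37.5% and 63.6% of all). On U74Bv2 0 of 1 and 4 of 7 were (32.5% and 49.3% of all). On U74Cv2 the counts were close, at 4 of 9 and 3 of 6 (31.4% and 38.9% of all). Of 13 Nduf genes with probe sets on more than 1 design, 5 were detected on each such design and 8 on a single one. Of 5059 genes measured on more than 1 design, 32.2% were detected on each, 47.8% on some and 19.9% on none. The parts of the probe source and of the design in the calls were not tested.

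On U74Av2 25 of 42 Nduf probe sets (59.5%) lay at 10 or more times the limit, where 19.5% of all probe sets of the design did. Another 7 lay under 0.5 times (16.7%, against 24.6% of all), 7 between 0.5 and 2 times (16.7%, against 23.4%), and 3 between 2 and 10 times (7.14%, against 32.6%). The median Nduf probe set stood at 20.6, 16.6 and 16.6 times the limit on replicates 1, 2 and 3, and the median of all probe sets at 2.67, 1.87 and 2.17 times. By rank the median Nduf probe set lay at the 89.0th, 89.9th and 89.1st percentile of these arrays. On U74Bv2 the 8 Nduf probe sets had a median of 1.64, 2.20 and 0.929 times the limit. All probe sets of that design had 1.54, 1.77 and 0.819 times. The median Nduf probe set there lay only at percentiles 50.75, 54.25 and 52.74. On U74Cv2 the 18 had 1.36, 1.98 and 1.84 times, where all probe sets had 0.597, 0.811 and 0.709 times. Their median percentiles were 69.7, 70.5 and 71.4, so the high rank on U74Av2 did not hold on every design. Since U74Av2 carries different probe sets from the other designs, these medians were not compared between designs.

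**Figure D3:**
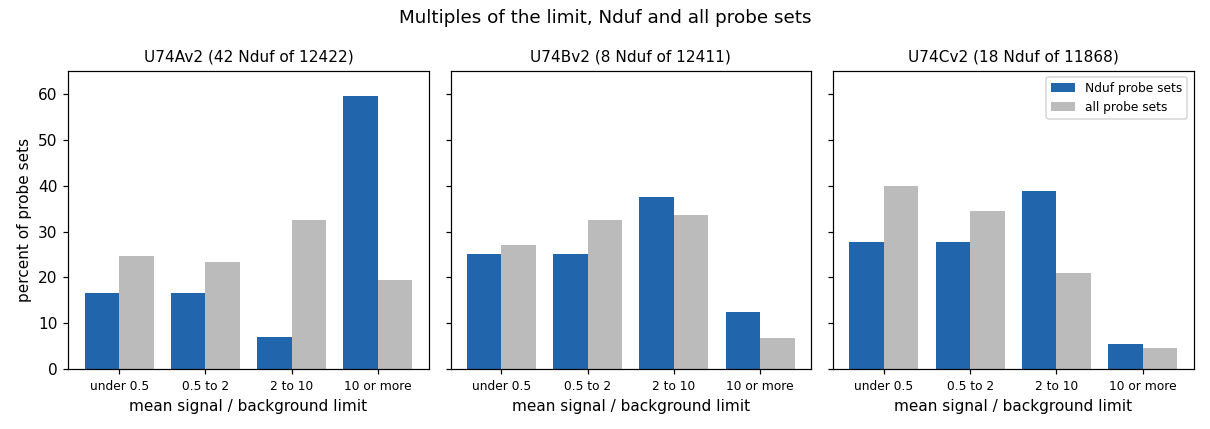
Percent of Nduf probe sets (blue) and of all probe sets of the design (grey) by mean signal over background limit, in 4 classes, for each design. On U74Av2 59.5% of the Nduf bars stand at 10 or more times the limit beside 19.5% of all probe sets; on U74Bv2 and U74Cv2 12.5% and 5.56% do, beside 6.74% and 4.63%.

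Replicate arrays agreed closely for the detected members. The median SD of log2 signal was 0.134 over the 32 detected Nduf probe sets of U74Av2, where it was 0.154 over all 7225 detected ones. It was 0.111 over 4 on U74Bv2 (0.178 over all detected) and 0.19 over 9 on U74Cv2 (0.238 over all detected). Detection itself required a pass on every array. On U74Av2 25 of the 32 detected Nduf probe sets lay at 10 or more times the limit, beside 2418 of all 7225. The spread was not compared at equal signal. Undetected Nduf probe sets spread more, with medians of 0.515, 0.732 and 0.381 on U74Av2, U74Bv2 and U74Cv2, where all undetected probe sets had 0.577, 0.518 and 0.673. On U74Bv2 Ndufaf4 had the largest SD among detected members, 0.175, and on U74Cv2 Ndufb2 did, 0.339, with signals of 2601, 2768 and 1792.

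Each array was also set against the mean of its replicates. On U74Av2 the median deviation of the detected Nduf probe sets from their own means, on the log2 scale, was -0.07, 0.08 and -0.02 on replicates 1, 2 and 3, and 13, 21 and 14 of the 32 lay above their means. Over all detected probe sets of that design the medians were 0.01, 0.00 and -0.00. The detected probe sets of complexes II to V, the other respiratory complexes, had medians of -0.08, 0.03 and 0.10 on the same arrays, with 8, 24 and 29 of 40 above their means. A probe set's 3 deviations sum to 0, so a low replicate 1 raises the others. On U74Bv2 the 4 detected Nduf probe sets had medians of 0.05, 0.04 and -0.09, and on U74Cv2 the 9 had 0.09, -0.03 and 0.01. These shifts were not tested.

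**Figure D4:**
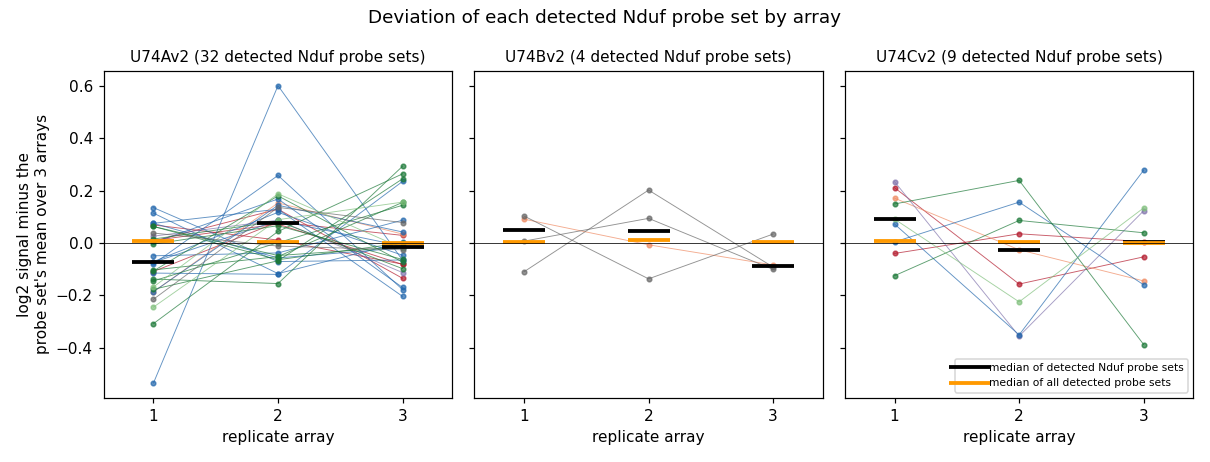
Log2 signal of each detected Nduf probe set minus its mean over the 3 arrays of its design, by replicate, with 1 thin line per probe set coloured by role. Black bars are the medians over the Nduf probe sets and orange bars those over all detected probe sets; on U74Av2 the black bars lie at -0.07, 0.08 and -0.02, and the line with the widest swing is Ndufa1.

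Of 16 listed complex I genes without an Nduf name, 8 had a probe set here. Of these 5 were detected, by 6 of 16 probe sets, where 62.0% of all named genes were detected. Acad9, which works with Ndufaf1 in building the membrane arm, read 1050, 894 and 695 on U74Av2, 3.67 ± 1.27 times the limit, and Tmem126b, a partner of both, lay at 1.76 ± 0.628 times on U74Bv2. Foxred1, Nubpl, which delivers iron-sulphur clusters to the complex, and Tmem70 lay at 3.86 ± 0.745, 3.22 ± 1.63 and 10.1 ± 1.13 times. Ecsit, Timmdc1 and Tmem186, also assembly factors, were not detected, and Ecsit read 166, 519 and 238 on U74Bv2, above the limit on replicate 2 alone. The mitochondrially encoded subunits were among those listed, but none was found with a probe set annotated to it alone, so they were not analysed here. In complexes II to V, 32 of 35 measured genes were detected, by 46 of 64 probe sets, beside 36 of 39 genes and 45 of 68 probe sets for Nduf. On U74Av2 alone the probe sets were 40 of 49 and 32 of 42. The difference was not tested, and nothing particular to complex I was shown in these counts.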

How the data were processed

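The deposited values are probe set intensity (signal) on a linear scale, which the authors computed using MAS5 (per the submitters' processing notes). The MAS5 version and scaling options were not given in the sources used here. Trimming 2% from either end left a mean of 1500.33 to 1500.95 per array in every design, so each array had been scaled to about the same mean. The designs share no Nduf probe set, so this scaling does not make their values comparable. Deposited instrument records, per the file headers, named a chip type and a fluidics station; the former fitted the label for 9 of 9 arrays. No 2 arrays of a design held an identical value. For precision, the number of arrays is the limit.

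Symbols came from the platform annotation, and all 39 Nduf symbols stood in the RefSeq gene table of GRCm38.p6, which lists 49 protein-coding Nduf genes. Nduf genes without a probe set of 1 symbol were not analysed here. The background limit used controls numbering 20, 20 and 17 for U74Av2, U74Bv2 and U74Cv2 (Dap, Lys, Phe, Thr, Trpn and reverse-strand controls, without families whose median exceeded the design's). The moderated test used limma 3.58.1 in R 4.3.3 on log2(signal / limit), two-sided, fitted to all non-control probe sets of a design. The limit entered as a fixed number. The test was also run on simulated data, which held no shift shared by an array and no unraised probe set at the limit. That run could not show how the test behaves under such shifts or near the limit. Tables and figures were made in Python 3.11.15 with pandas 2.3.3, numpy 2.4.6 and matplotlib 3.10.9. Genes were named by rule: all core subunits, the extremes of each role group, undetected probe sets, genes whose probe sets disagreed and the largest spread on each design; other members, named to account for all, were outside it. Alternatives were another limit, quantile normalization, leaving out each replicate, a pseudocount of 50, a filter at the 20th percentile, suffix-free probe sets and other calling rules. The members and lists were chosen with earlier results of these data known.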

Additional observations from a re-analysis of the deposited data

Results flagged for a closer look

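Of 12 probe sets annotated to Nduf genes together with another symbol, which the rule left out, 8 exceeded the limit on each of their 3 arrays. Over all probe sets the shares were 58.2% on U74Av2, 43.8% on U74Bv2 and 31.6% on U74Cv2, and the difference was not tested. These 8 hold signal in data outside the comparisons above. The symbols joined by "or" cannot be told apart by these probe sets. On U74Av2, Ndufs6b or Ndufs6 lay at 27.9 ± 3.53 times the limit (96291_f_at) and 32.4 ± 8.49 times (96292_r_at; SD, n = 3). Ndufs5 or Ndufs5-ps lay at 24.0 ± 4.24 times, Ndufa11b or Ndufa11 at 20.6 ± 3.53 times, Ndufab1-ps or Ndufab1 at 16.3 ± 3.36 times, and Ndufb4b or Ndufb4c or Ndufb4 at 2.77 ± 0.838 times. On U74Bv2 Ndufb4b or Ndufb4c or Ndufb4 lay at 3.17 ± 1.02 times. On U74Cv2 Ndufs6b or Ndufs6 lay at 3.27 ± 2.03 times, with signals of 2040, 1612 and 4416, of which replicate 3 was far above the others. Further probe sets of these genes lay under the limit on every array. They were 105127_at (Ndufa11b or Ndufa11, 0.393 ± 0.119 times) and 164598_i_at (Ndufs6b or Ndufs6, 0.114 ± 0.119 times) on U74Bv2. On U74Cv2 it was 171510_i_at (Ndufb4b or Ndufb4, 0.311 ± 0.0823 times). Ndufb2 or Adck2 lay at 1.26 ± 0.632 times on U74Cv2, above the limit on 2 arrays.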

How the results depend on the processing

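No paired analysis was possible because all arrays hold 1 condition and the designs share no Nduf probe set, so no contrast between groups exists. Every count of Nduf probe sets or genes, detected or above the limit by the moderated test, stayed within 1.5 times its value under the alternatives run. Leaving out 1 replicate gave 36 to 37 genes, 32 detected probe sets each time on U74Av2, 4 to 5 on U74Bv2 and 9 to 12 on U74Cv2, since fewer arrays had to pass. With the median signal of each array as the limit 35 genes were detected: Ndufaf6 was gained, Ndufa1 and Ndufc2 were lost, and the median multiple moved from 17.8 to 8.01 on U74Av2 and from 1.73 to 2.4 on U74Cv2. Without replicate 1 Ndufaf6 was detected, and without replicate 3 Ndufaf5. Suffix-free probe sets gave 32 genes, and a call that needs at least 50% of a gene's probe sets gave 32, without Ndufa6, Ndufab1, Ndufb6 and Ndufb8. Requiring 2 of 3 arrays, added per gene after seeing the data, gave 38, with Ndufaf5 and Ndufaf6. No suffix-free probe set exists for 5 genes (4 of them detected: Ndufa3, Ndufa5, Ndufb2 and Ndufb5). Of the 34 genes with a value under every setting, 26 kept their call, all detected. The median SD of log2 signal without 1 replicate ranged from 0.0982 to 0.105 on U74Av2 (0.134 with all), 0.0626 to 0.13 on U74Bv2 (lowest without replicate 2) and 0.116 to 0.223 on U74Cv2 (lowest without replicate 2); it is taken over 2 arrays there. Quantile normalization, added after seeing the data for the deviations, turned the small U74Cv2 replicate 2 median from -0.03 to 0.02.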
